A study of Rattus norvegicus with 12 samples.

Results

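The contractile apparatus of smooth muscle was read in rat lung through 10 genes, Acta2, Actg2, Myh11, Mylk, Cnn1, Tagln, Smtn, Lmod1, Des and Myocd. They were chosen by name, and a probe was assigned to a gene when its RefSeq accession mapped to that symbol. These are 10 of the 14737 genes that could be named on the array, where 17514 of 30367 transcript probes received a symbol through their accession. The 10 genes held 15 probes, and 5 of the genes (Myh11, Smtn, Mylk, Lmod1 and Actg2) had a second probe. The most intense detected probe stood for each gene. All 15 probes were well above background on all 12 arrays.

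The samples were lungs of male Sprague-Dawley rats aged 8 to 12 weeks, 3 per group. Control rats breathed room air and received saline. The CS + LPS group, a model of chronic obstructive pulmonary disease, was exposed to cigarette smoke (CS) until day 30 with lipopolysaccharide (LPS) put into the trachea on days 5 and 19. The CS + LPS + NaHS group had the same exposures and injections of NaHS, a donor of hydrogen sulfide. The CS + LPS + PPG group had them with injections of PPG (propargylglycine), which blocks CTH, an enzyme that makes hydrogen sulfide. No group analysed here received NaHS or PPG without smoke and LPS. The study asked how raising or lowering hydrogen sulfide alters the lung transcriptome in this model.

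In the lung, smooth muscle wraps the conducting airways and the pulmonary vessels, and a whole-lobe sample holds both. Force comes from smooth muscle myosin pulling on actin filaments. Calcium entering the cell binds calmodulin, calmodulin switches on myosin light chain kinase, and the phosphorylated light chain lets myosin cycle. Most genes of the apparatus are switched on by serum response factor (SRF) bound at CArG boxes together with its coactivator myocardin, so they often rise and fall as a set when smooth muscle cells mature or lose their contractile state. In bulk tissue, fewer smooth muscle cells and less RNA per cell cannot be told apart.

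Values are log2 of the processed intensity after each array was scaled to a common 75th percentile, and a difference of 1 is a 2-fold change. Before scaling, the 75th percentile of the probes lay between 857 and 2227 intensity units, and control replicate 3 was the dimmest array. That array also correlated less with the others (r 0.936 to 0.957 over detected probes) than the others did among themselves (0.975 to 0.992). The 12 arrays lay on 2 slides. Slide 1 held control replicates 1 and 2 and all arrays of the NaHS and PPG groups, and slide 2 held control replicate 3 and all 3 CS + LPS arrays. Contrasts of either treated group with CS + LPS alone therefore cannot be told apart from slide, except through control replicate 3. A probe was called when its fold change was at least 2 and its unadjusted limma p was under 0.05, and Benjamini-Hochberg adjusted p-values are given beside the call. Nothing in the sources states whether the replicates were handled independently after dissection, so the p-values measure only the spread between these samples.

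RefSeq promoter windows, from 250 bases before to 50 bases after the annotated start, were found for 6 of the 10 genes (Acta2, Cnn1, Smtn, Des, Mylk and Actg2). A CArG box has 10 bases, a CC and a GG around 6 bases that are A or T. The exact form, read on both strands, was in 0 of these 6 windows and in 548 of all 33469 windows of this length (1.64%). A form with 1 G or C inside the A/T run, searched after the exact form had given no match, was in the window of Acta2 only, with 2 copies, and in 8.1% of all windows. The stretch from -150 to -1 of Acta2, which encodes the actin that defines smooth muscle cells, is shown because it holds both copies. It lies at chr1:241172504-241172653 on the minus strand of GRCr8, is written 5′ to 3′ with both copies in capitals, and reads as follows.
Acta2: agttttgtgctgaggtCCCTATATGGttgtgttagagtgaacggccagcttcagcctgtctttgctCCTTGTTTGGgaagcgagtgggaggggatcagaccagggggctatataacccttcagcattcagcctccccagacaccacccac
The copies start at -134 and -84. The sequence CATTCC, the core of the MCAT element of muscle genes, was found on either strand in the windows of Acta2 and Mylk, against 14.2% of all windows, and TATAAA was in 0 of the 6 windows against 14.2%. These matches describe letters in a window and say nothing of binding in these lungs.

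The actins and the myosin heavy chain, which form the filaments, were spread widely among the 3 rats of the CS + LPS group. For the myosin heavy chain, Myh11, the controls were spread as widely (SD 0.63 in both groups). Acta2, smooth muscle alpha-actin, measured 11.53, 11.52 and 12.16 in the controls, 12.03, 10.97 and 12.16 in the CS + LPS group, 11.79, 11.64 and 11.36 with NaHS and 11.47, 11.14 and 11.31 with PPG. The controls and the CS + LPS group had nearly the same highest value and overlapped, while CS + LPS replicate 2 lay below every control. Their means were 11.74 ± 0.37 and 11.72 ± 0.65 (SD, n = 3). All 3 PPG values lay below all 3 control values, with a mean of 11.31 ± 0.17.

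Actg2, the enteric type of smooth muscle gamma-actin, measured 14.70, 14.39 and 15.09 in the controls, 15.46, 14.35 and 14.68 in the CS + LPS group, 14.37, 14.69 and 14.17 with NaHS and 14.73, 14.13 and 14.31 with PPG. All 4 groups overlapped, and the CS + LPS group held the highest array as well as the widest range, 2.16-fold from its lowest to its highest rat. The second Actg2 probe had the same direction in each of the 5 comparisons.

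Myh11, the smooth muscle myosin heavy chain, measured 13.92, 13.40 and 14.64 in the controls, 14.11, 12.87 and 13.67 in the CS + LPS group, 13.42, 13.46 and 13.31 with NaHS and 13.46, 12.94 and 12.81 with PPG. Control replicate 3 was the highest of the 12 arrays and PPG replicate 3 the lowest. The PPG mean was 0.92 lower than the control mean (SE 0.35), 1.89-fold, with a limma p of 0.0236 and an adjusted p of 0.118, which is short of the 2-fold call, and PPG replicate 1 overlapped the controls. It was called with quantile normalization (-1.01), without control replicate 2 (-1.21) and without PPG replicate 1 (-1.11). The difference was -0.59 with slide as a block, which here equals leaving out control replicate 3 (limma p 0.103), and -0.59 on slide 1 alone (limma p 0.0305). The second Myh11 probe was 0.81 lower in the same comparison (limma p 0.0344, adjusted p 0.141), and in NaHS against CS + LPS it went the other way from the chosen probe, at 0.13 against -0.16.

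**Figure D1:**
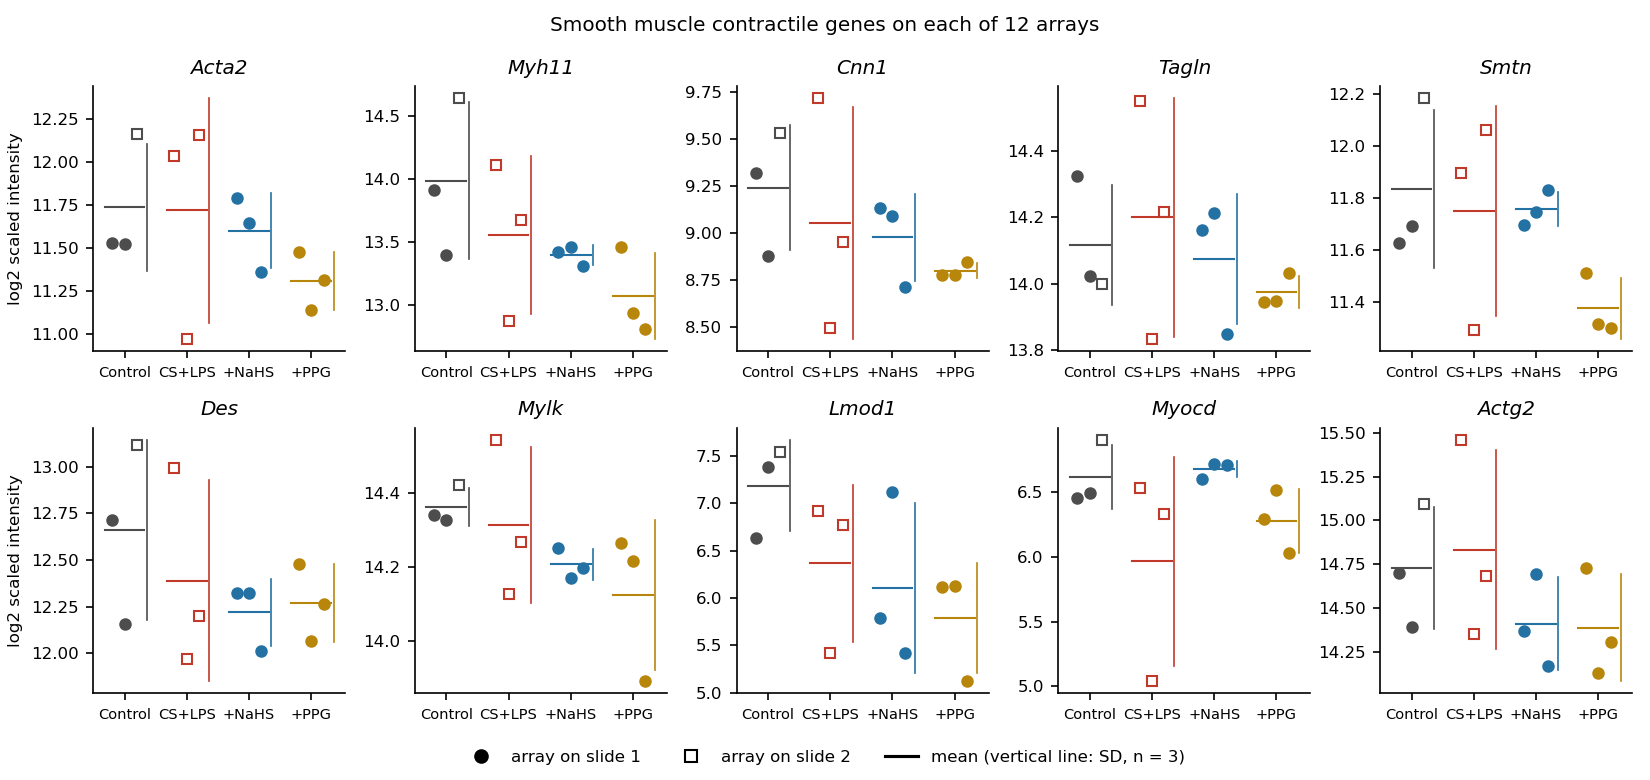
Log2 scaled intensity (vertical axis, a separate range in each panel) of the 10 contractile genes on the 12 arrays, by group. Points are single arrays (filled circles slide 1, open squares slide 2), horizontal lines are group means and vertical lines the SD of 3 arrays. CS + LPS replicate 2, the middle square of its group, is the lowest of the 3 CS + LPS arrays in all 10 panels.

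The kinase that starts contraction was the steadiest member on its more intense probe. Mylk, myosin light chain kinase, lay between 13.89 and 14.54 over all 12 arrays, and its pooled SD within groups was 0.15. The CS + LPS mean differed from the control mean by -0.05, with a 95% interval from -0.37 to 0.27, so this interval excludes a 2-fold change in either direction. The PPG mean was 14.12 ± 0.20 against 14.36 ± 0.05 in the controls (SD, n = 3), without overlap.

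The second Mylk probe gave a different picture. It measured 9.97, 10.58 and 11.12 in the controls, 9.56, 9.86 and 9.03 in the CS + LPS group, 10.04, 10.91 and 10.95 with NaHS and 10.76, 10.40 and 10.37 with PPG. All 3 CS + LPS values were below every value of the other 3 groups. The CS + LPS mean was 1.07 lower than the control mean (SE 0.33, limma p 0.00825, adjusted p 0.100), a 2.10-fold decrease that met the call. Against the CS + LPS group the probe was higher by 1.15 with NaHS (limma p 0.0055, adjusted p 0.202) and by 1.03 with PPG (limma p 0.0106, adjusted p 0.278), and both differences met the call. Mylk encodes a long and a short kinase and the non-kinase protein telokin. Which of their transcripts each probe reads was not tested, and no probe sequence was available in the files used here. The call against the control was lost without control replicate 3 (-0.79, limma p 0.0365) or CS + LPS replicate 3 (-0.85, limma p 0.0398), with normexp background correction (-0.99, limma p 0.00502) and by the p of the methods' t-test. The differences were larger with slide as a block, -1.64 from the control (limma, adjusted p 0.0114), 2.00 with NaHS (limma, adjusted p 0.0254) and 1.87 with PPG (limma, adjusted p 0.0323) from the CS + LPS group. That fit links the slides through control replicate 3 alone. Over all detected probes it called 4824, 4220 and 4118 in these 3 comparisons, against 974, 363 and 437 without the block. Without CS + LPS replicate 3 the differences were 0.92 with NaHS and 0.80 with PPG, without NaHS replicate 3 the former was 0.99 and without PPG replicate 1 the latter was 0.90, and these were not called.

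**Figure D2:**
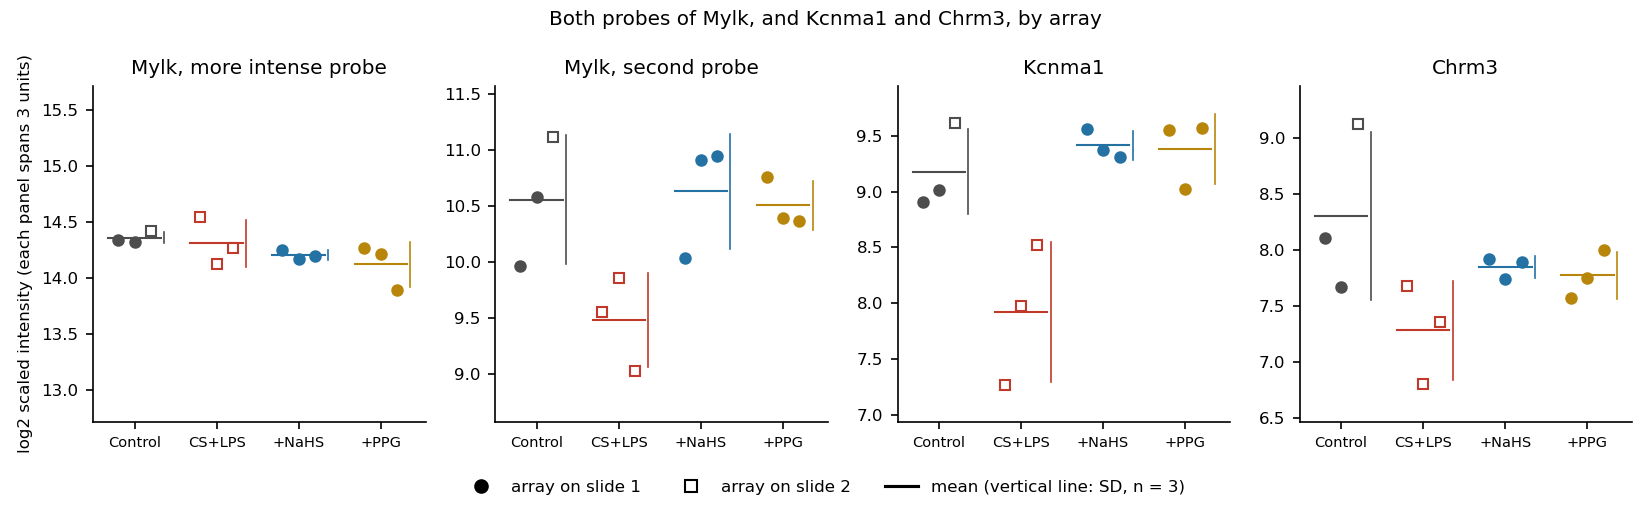
Log2 scaled intensity of the more intense and the second probe of Mylk, and of Kcnma1 and Chrm3, on the 12 arrays, with the symbols of the plot of the 10 genes and each panel spanning 3 log2 units. The second Mylk probe and Kcnma1 have all 3 CS + LPS arrays below the arrays of the other groups, while the more intense Mylk probe stays within 13.89 to 14.54.

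Among the proteins that sit on the thin filament, the member that moved most was Lmod1. Lmod1, leiomodin 1, starts new actin filaments in smooth muscle. It measured 6.64, 7.38 and 7.54 in the controls, 6.92, 5.41 and 6.78 in the CS + LPS group, 5.78, 7.12 and 5.41 with NaHS and 6.12, 6.13 and 5.12 with PPG. The PPG and control groups did not overlap, whereas the CS + LPS and NaHS groups each had 1 or more arrays inside the control range. The PPG mean was 1.40 lower than the control mean (SE 0.51, limma p 0.0203, adjusted p 0.110), 2.63-fold. The second Lmod1 probe was 0.72 lower (limma p 0.0404, adjusted p 0.152), also without overlap and short of 2-fold. On slide 1 alone the chosen probe was 1.22 lower (limma p 0.0542) and was not called. The call was also lost without control replicate 2 (-1.30, limma p 0.0543), control replicate 3 (-1.22, limma p 0.0642) or PPG replicate 3 (-1.06, limma p 0.0859). With normexp background correction the difference was -0.91 (limma p 0.00646), short of 2-fold and not called.

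Cnn1, calponin 1, which restrains the actomyosin ATPase, lay between 8.49 and 9.72. Its PPG arrays were close together at 8.80 ± 0.04 and all below the controls at 9.24 ± 0.33 (SD, n = 3). Tagln, transgelin, an actin-binding protein of smooth muscle, lay between 13.83 and 14.55, and its differences between groups ran from -0.23 to 0.08. Smtn, smoothelin, found in fully contractile cells, was 11.38 ± 0.12 with PPG against 11.84 ± 0.30 in the controls, a difference of -0.46 with a 95% interval from -0.92 to -0.0012 (limma p 0.0495, adjusted p 0.170). All 3 PPG values of Smtn were below the controls. Without control replicate 3, and equally with slide as a block, the difference was -0.29 (limma p 0.182), and on slide 1 alone it was the same with a limma p of 0.0335. The second Smtn probe was 0.38 lower in that comparison, and it went the other way from the chosen probe in NaHS against control, at 0.14 against -0.08.

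Des, desmin, is the intermediate filament that ties the contractile units together and is shared with heart and skeletal muscle. It measured 12.71, 12.15 and 13.12 in the controls, 13.00, 11.97 and 12.20 in the CS + LPS group, 12.32, 12.32 and 12.01 with NaHS and 12.48, 12.06 and 12.26 with PPG. All groups overlapped, and the lowest limma p over the 5 comparisons was 0.154.

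Myocd, myocardin, is the coactivator that drives most of the other genes. It measured 6.45, 6.50 and 6.90 in the controls, 6.53, 5.04 and 6.33 in the CS + LPS group, 6.61, 6.72 and 6.71 with NaHS and 6.29, 6.52 and 6.03 with PPG. It was the only one of the 10 genes whose NaHS mean was above both the control mean and the CS + LPS mean. Its signal was faint, with a mean of 6.39 over the 12 arrays. All 3 NaHS values were above the CS + LPS values, by 0.71 on average (95% interval from -0.01 to 1.43, limma p 0.0516, adjusted p 0.522), and the lowest of the 12 values was that of CS + LPS replicate 2. Without that array the difference was 0.25. This difference cannot be told apart from slide.

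Compared with the control, the CS + LPS group called 0 of the 10 genes, where 4.59% of the 21239 detected probes were called. In that comparison 2 genes were higher and 8 lower, from -0.82 (Lmod1) to 0.10 (Actg2), with a median of -0.14 against -0.04 over all detected probes. An unadjusted limma p under 0.05 was reached by 0 genes (25.2% of all probes), an adjusted p under 0.05 by 0 genes (2.04%), and the lowest adjusted p was 0.231. None of the genes had groups that did not overlap, against 25.2% of all probes. The methods' t-test also called 0 genes. With slide as a block, Myh11 was called at -1.09 (limma p 0.0254, adjusted p 0.0584), and the median of the 10 genes was -0.46. That fit called 4824 of the 21239 detected probes, against 974 without the block.

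With NaHS, 0 of the 10 genes were called against the control, where 2.67% of all probes were called, and 9 of them were lower. The median was -0.21 against 0.00 over all probes, and the lowest limma p was 0.0599, of Lmod1 at -1.08. An unadjusted p under 0.05 was reached by 0 genes (17.1% of all probes) and an adjusted one by 0 (0.0989%). Against the CS + LPS group, 0 genes were called, where 1.71% of all probes were, and 8 were lower with a median of -0.12 against -0.01, and 0 genes reached an unadjusted p under 0.05 (9.66% of all probes) or an adjusted one (0.598%). With slide as a block that median was 0.44, and 8 of the 10 genes were higher. The groups did not overlap for Mylk in the comparison with the control (24.8% of all probes) and for Myocd in the comparison with the CS + LPS group (20.5%).

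With PPG, 1 of the 10 genes was called against the control, Lmod1, where 4.38% of all probes were called and 2.06% were called lower. All 10 genes were lower, from -1.40 (Lmod1) to -0.14 (Tagln), with a median of -0.41 against -0.01 over all probes. An unadjusted limma p under 0.05 was reached by 3 genes (Lmod1, Myh11 and Smtn), beside 29.3% of all probes, and the adjusted p-values ran from 0.110 to 0.636, so 0 genes passed 0.05 after adjustment, which 4.61% of all probes did. The groups did not overlap for 5 genes (Acta2, Cnn1, Smtn, Mylk and Lmod1), beside 33.1% of all probes. On slide 1 alone the median of the 10 genes was -0.21. Against the CS + LPS group, 0 genes were called, where 2.06% of all probes were, and 9 were lower with a median of -0.31 against 0.02. In that contrast 0 genes reached an unadjusted p under 0.05 (10.5% of all probes) or an adjusted one (0.518%), and 0 genes had groups without overlap (19.1%). With slide as a block that median was 0.16. The comparisons with NaHS and with PPG share their control and CS + LPS arrays, so they do not stand as separate evidence.

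**Figure D3:**
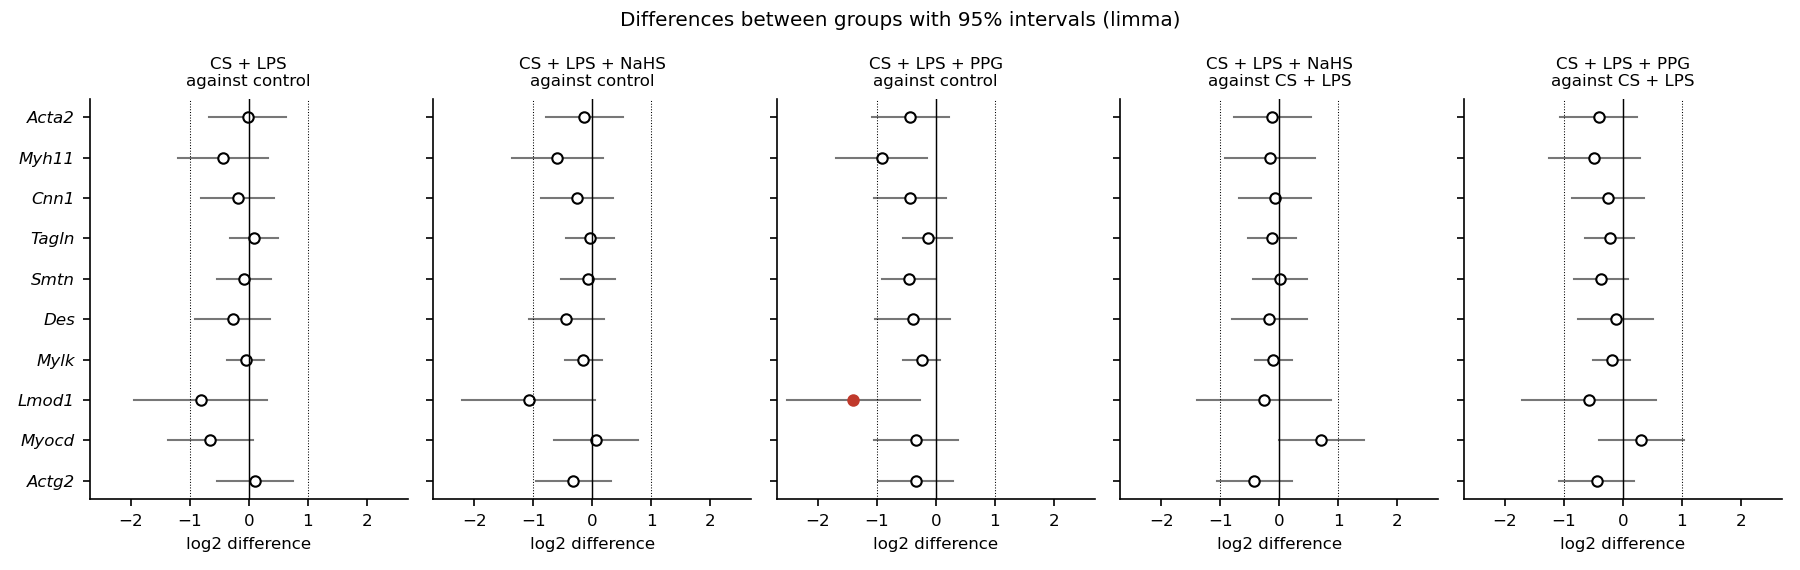
Log2 difference between groups (horizontal axis) for the 10 genes in the 5 comparisons, with the 95% interval of the limma fit. Dotted lines mark a 2-fold change, and the filled red point is the difference that met the call, Lmod1 in PPG against control at -1.40, while all 10 genes lie left of 0 in that panel.

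The 10 genes moved together from rat to rat. Over the 12 arrays, all 45 pairs of genes had a positive Pearson r, from 0.27 to 0.91 with a median of 0.65. After the group means of each gene were subtracted, the 45 pairs were still positive, with a median of 0.63. Myh11 followed the others most closely (median r 0.82) and Tagln least (0.53). The arrays share a scaling and pairs share genes, so these r values are a description. The median was 0.66 under quantile normalization.

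This shared movement was widest in the CS + LPS group. CS + LPS replicate 1 had all 10 genes above their mean over the 12 arrays, and CS + LPS replicate 2 had 0 of 10 above it and was the lowest of the 12 arrays for 6 genes. Replicate 1 exceeded replicate 2 for 10 of 10 genes, by 0.41 to 1.50 and by a median of 1.09, which is 2.12-fold. The SD among the 3 CS + LPS rats had a median of 0.59 over the 10 genes against 0.21 over all detected probes, and the median gene stood at percentile 93.0 of all probes. In the controls the same medians were 0.34 and 0.31, with NaHS 0.19 and 0.14, and with PPG 0.21 and 0.18.

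The mean of the 10 centred genes was 0.26 ± 0.28 in the controls, 0.03 ± 0.53 in the CS + LPS group, -0.04 ± 0.18 with NaHS and -0.25 ± 0.16 with PPG (SD, n = 3). The 4 groups overlapped in part, since CS + LPS replicate 2 at -0.55 was below the lowest PPG array at -0.39. The highest array was control replicate 3 at 0.57, where 6 of the 10 genes had their highest value. Without control replicate 3 and CS + LPS replicates 1 and 2, 42 of the 45 pairs had a positive r and the median was 0.43.

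**Figure D4:**
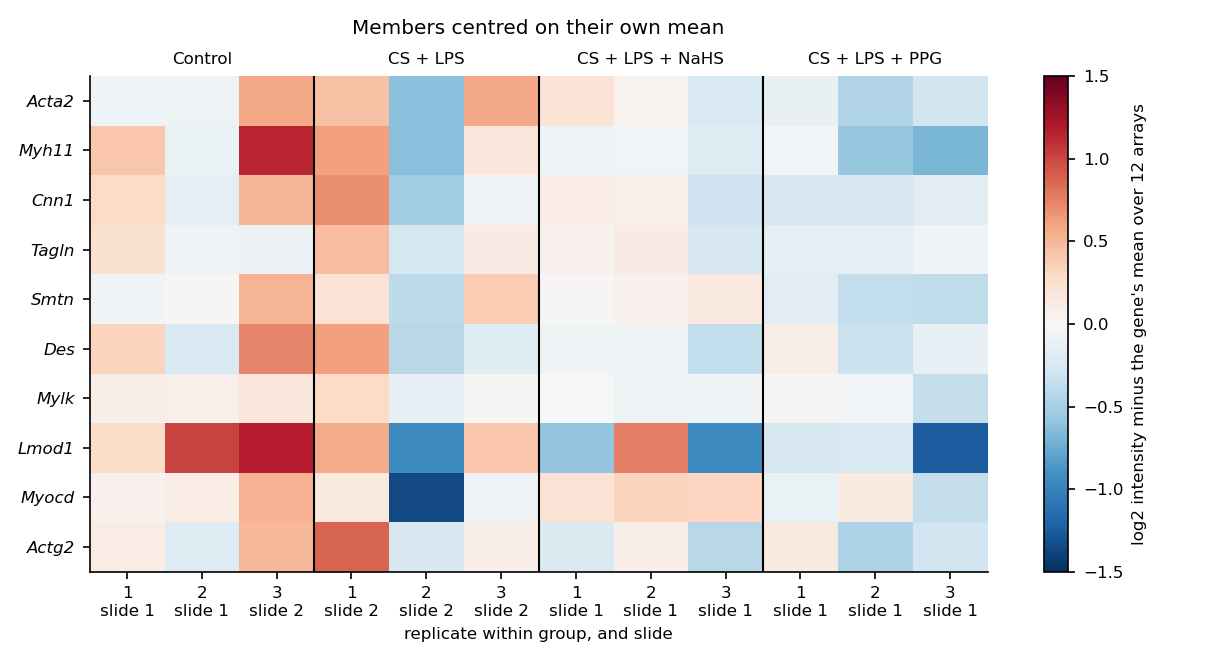
Heat map of the 10 genes (rows) on the 12 arrays (columns, with replicate and slide), as log2 intensity minus the gene's mean over the arrays, red higher and blue lower. CS + LPS replicate 1 is above the mean in 10 of 10 genes and replicate 2 in 0 of 10, while the PPG arrays are mostly below it.

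Other parts of the contractile machinery were taken from 4 lists. Of 14 partners of the thin filament and the dense plaques that anchor it, 11 were detected. Compared with the control the CS + LPS group had 7 of them higher and 4 lower, NaHS 6 and 5, and PPG 1 and 10, where their median was -0.20. The only called gene was Lpp, a protein of the plaques, which measured 6.01, 7.99 and 7.05 in the controls, 6.16, 5.89 and 6.09 in the CS + LPS group, 5.60, 5.53 and 6.22 with NaHS and 5.996, 5.94 and 4.92 with PPG. Control replicate 1 lay close to the exposed arrays, and the other 2 controls were higher. Lpp was lower than the control by 1.23 with NaHS (limma p 0.0183, adjusted p 0.221) and by 1.40 with PPG (limma p 0.00946, adjusted p 0.0808). Without control replicate 2, which was the highest, the differences were -0.74 and -0.91 and neither was called, and the NaHS difference also lost its call without NaHS replicate 1 or 2 (limma p 0.0531 and 0.0574). Both calls were also lost with normexp (-0.99 and -0.94) and by the methods' t-test, and the NaHS call on slide 1 alone (limma p 0.0711). The most intense partners were talin (Tln1) and Csrp1, a LIM protein of smooth muscle, and their differences between groups stayed between -0.29 and 0.17, with limma p-values from 0.184 upward.

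Of 10 genes for the myosin light chain and the enzymes that set its phosphorylation, 9 were detected and 0 were called in the 5 comparisons. Compared with the control, 7 were lower in the CS + LPS group and 6 each with NaHS and PPG, with medians of -0.40, -0.10 and -0.29. Myl6, the essential light chain of smooth and nonmuscle myosin, was steady at 17.59 to 18.11 over the 12 arrays. Myl9, the regulatory light chain of smooth muscle that the kinase phosphorylates, was 13.62 ± 0.14 in the controls, 13.96 ± 0.40 in the CS + LPS group, 13.75 ± 0.10 with NaHS and 13.56 ± 0.26 with PPG (SD, n = 3), and it was highest on CS + LPS replicate 1 at 14.35.

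Of 8 genes for SRF and the factors that work with or against it, 4 were detected, and 0 were called. Compared with the control, 3 of 4 were lower in the CS + LPS group, 3 with NaHS and 4 with PPG. Srf was 13.46 ± 0.34 in the controls, 13.20 ± 0.16 in the CS + LPS group, 13.26 ± 0.08 with NaHS and 13.16 ± 0.17 with PPG (SD, n = 3), with overlap. Klf4, which represses SRF targets in smooth muscle and is also made by other lung cells, was 13.51 ± 0.18 in the controls, 13.03 ± 0.07 in the CS + LPS group, 13.06 ± 0.46 with NaHS and 12.91 ± 0.28 with PPG (SD, n = 3). The CS + LPS and PPG arrays all lay below the controls, with differences of -0.48 (limma p 0.0533, adjusted p 0.203) and -0.60 (limma p 0.0210, adjusted p 0.112).

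Of 12 receptors and channels that start or stop contraction, 11 were detected, and 3 were called in at least 1 comparison. In CS + LPS against control 2 were called lower, where 4.59% of all probes were called. Against the CS + LPS group 2 were called higher with NaHS (1.71% of all probes) and 2 with PPG (2.06%), in both cases Kcnma1 and the faint Chrm2. Against the control 0 were called with NaHS (2.67%) and 0 with PPG (4.38%). Kcnma1, the pore of the large-conductance calcium-activated potassium channel that relaxes smooth muscle, measured 8.91, 9.01 and 9.61 in the controls, 7.27, 7.98 and 8.52 in the CS + LPS group, 9.56, 9.37 and 9.31 with NaHS and 9.55, 9.02 and 9.56 with PPG. Every CS + LPS array was below every array of the other groups. Kcnma1 was lower in the CS + LPS group than in the control by 1.25 (SE 0.30, limma p 0.00156, adjusted p 0.0578), 2.39-fold. Against the CS + LPS group it was higher by 1.49 with NaHS (limma p 0.000441, adjusted p 0.0604) and by 1.46 with PPG (limma p 0.000523, adjusted p 0.0747). All 3 adjusted p-values were above 0.05. Without CS + LPS replicate 1, the lowest, the difference from the control was -0.93 (limma p 0.00574) and was not called. On slide 2 alone, with control replicate 3 as the only control, the CS + LPS difference of Kcnma1 was -1.69 (limma p 0.0139).

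Chrm3, the muscarinic receptor through which acetylcholine contracts airways, measured 8.11, 7.67 and 9.13 in the controls, 7.68, 6.81 and 7.36 in the CS + LPS group, 7.92, 7.74 and 7.90 with NaHS and 7.57, 7.75 and 8.00 with PPG. The CS + LPS mean was 1.02 lower than the control mean (limma p 0.0104, adjusted p 0.109), with overlap at CS + LPS replicate 1, and it was not called without control replicate 3 (-0.61) or CS + LPS replicate 2 (-0.78), with quantile normalization (-0.88), with normexp (-0.84) or by the methods' t-test. A fit with slide as a block gave a Chrm3 difference of -1.85 (limma, adjusted p 0.00171), and NaHS and PPG were called higher than the CS + LPS group, by 1.81 (limma, adjusted p 0.0126) and 1.73 (limma, adjusted p 0.0150). That fit links the slides through control replicate 3 alone. Over all detected probes it called 4824, 4220 and 4118 in these 3 comparisons, against 974, 363 and 437 without the block. Chrm2, the other muscarinic receptor of airway muscle, was close to background. It was well above background on 1 of 3 control arrays (replicate 3, at 6.40), 1 of 3 CS + LPS arrays (replicate 1, at 5.34), all 3 NaHS arrays (5.76 to 7.10) and 2 of 3 PPG arrays (5.84 and 5.90). Chrm2 thus passed the detection filter only through the NaHS group, where it was highest. The filter selected it for that group, so its p-values and calls are a description and no evidence of a rise. Its fitted differences from the CS + LPS group were 2.53 with NaHS (limma p 0.0051, adjusted p 0.195) and 1.79 with PPG (limma p 0.0309, adjusted p 0.415) and met the call, and since 2 CS + LPS arrays were not well above background their size is not well measured. With normexp background correction they were 0.74 and 0.47 and neither was called, and the p of the methods' t-test for PPG was above 0.05. The PPG difference was called in none of the fits without CS + LPS replicate 2 or 3 or PPG replicate 1 or 3 (1.38 to 1.64). Agtr1a, the angiotensin II receptor and among the most intense of this list, had differences from the control between 0.13 and 0.31, with limma p-values from 0.203 upward.

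Markers of other cells were read because several of them make some of the same proteins. Pericytes, which share actin and myosin genes with smooth muscle, had all 8 markers detected. Their summed scaled intensity was 52672 to 56186 in the controls and 43959 to 46901 in the CS + LPS group. It was 46317 to 46992 with NaHS and 40402 to 44786 with PPG. By this sum the controls lay above all other arrays. By the mean log2 of the 8 markers, control replicates 1 and 2 (11.87 and 11.79) were still the highest arrays. Control replicate 3 (11.54) was above CS + LPS replicate 2 (11.40) and all PPG arrays (11.44 to 11.53). It was below CS + LPS replicates 1 and 3 (11.71 and 11.60) and all NaHS arrays (11.70 to 11.72). Cspg4, the NG2 proteoglycan, was lower than the control by 1.17 in the CS + LPS group (limma p 6.8e-05, adjusted p 0.0192) and by 1.04 with PPG (limma p 0.000186, adjusted p 0.0243). With PPG, Mcam was lower by 1.02 (limma, adjusted p 0.0343) and Pdgfrb by 0.99 (limma, adjusted p 0.0371). In the fit with slide as a block, Cspg4 in the CS + LPS group was at -0.95 and not called, and with PPG Mcam was at -0.84 (limma, adjusted p 0.0548) and Pdgfrb at -0.85 (limma, adjusted p 0.0618), while on slide 1 alone Pdgfrb kept an adjusted p of 0.0269. On slide 2 alone, Cspg4 in the CS + LPS group was also at -0.95 (limma, adjusted p 0.0747). The fold change with PPG fell below 2 without control replicate 1 or PPG replicate 3 for Cspg4 (-0.95 and -0.997) and without control replicate 3 or PPG replicate 3 for Mcam (-0.84 and -0.82). Of the 8 pericyte markers, 4 were higher and 4 lower with PPG than in the control, with a median of -0.17, while all 10 contractile genes were lower. Against the control these markers also split 4 to 4 under CS + LPS alone (median -0.10) and with NaHS (median 0.03). The part of pericytes in the contractile values was not tested.

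Cardiac muscle, which in rodents also sheathes the pulmonary veins, had its markers detected for 7 of 8 genes, the exception being Nppa. Their summed intensity was 7346, 6546 and 96043 in the controls, 55672, 14101 and 13110 in the CS + LPS group, 10503, 58375 and 22405 with NaHS and 75116, 43550 and 69358 with PPG. The highest control was replicate 3 and the highest CS + LPS array was replicate 1, the same 2 arrays that had the highest means of the contractile genes, but the PPG arrays were high in cardiac markers and low in contractile genes. Sln, sarcolipin of the atria, was 4.11 higher with PPG than in the control (limma p 0.0204, adjusted p 0.111). Des is expressed in the heart, and the part of this tissue in the values of Des was not tested.

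**Figure D5:**
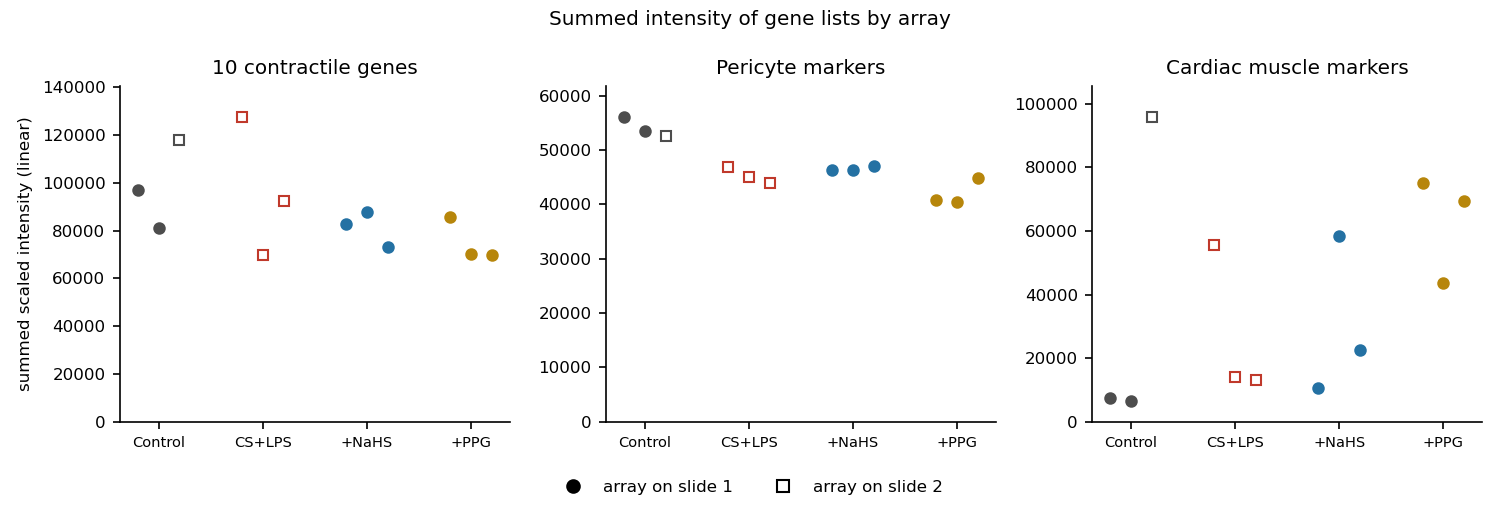
Summed linear scaled intensity (vertical axis, from 0) of the 10 contractile genes, the pericyte markers and the cardiac muscle markers on each array, by group, with filled circles for slide 1 and open squares for slide 2. The pericyte sum is highest in the 3 controls, and the cardiac sum ranges from 6546 to 96043 within the control group alone.

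The remaining lists gave smaller or separate movements. Fibroblast markers (8 of 8 detected) were split with PPG against the control, 4 higher and 4 lower. Of these, 2 were called higher, Dcn at 1.50 (limma, adjusted p 0.0439) and Lum at 1.20 (limma, adjusted p 0.0960). The fibroblast markers summed to 137918 to 164281 in the controls and 131397 to 181485 with PPG. Skeletal muscle markers were detected for 5 of 8 genes and summed to 751 to 2024 over all arrays. Cartilage markers, which would mark large airways, were detected for 3 of 8 genes and summed to 236 to 475. Airway epithelium markers (6 of 8 detected) summed to 263525, 264247 and 519354 in the controls, with control replicate 3 the highest, 216120 to 225270 in the CS + LPS group, 239359 to 269176 with NaHS and 240698 to 312303 with PPG. Alveolar epithelium markers (8 of 8) summed to 830825 to 1191540 and endothelium markers (6 of 8) to 99197 to 129100 over the 12 arrays. With PPG against control, 2 airway markers were higher and 4 lower, 5 alveolar markers were higher and 3 lower, and 3 endothelial markers were higher and 3 lower. The called or adjusted genes of these 3 lists in that comparison were Scgb3a1 (3.61, limma, adjusted p 0.0395) and Krt15 (1.74) of the airways, Lamp3 of alveolar type 2 cells (1.14, limma, adjusted p 0.0208) and the endothelial Pecam1 (-0.82, limma, adjusted p 0.0230). The part of these cells in the contractile values was not tested.

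The genes most like the 10 contractile genes were found by Pearson r between each gene and the mean centred profile of the 10, over the 12 arrays and 11136 other genes. They were Ntrk3 (r 0.93, Spearman rho 0.87), a neurotrophin receptor, Slc39a14 (0.93 and 0.85), a zinc and iron transporter, Hspa1l (0.92 and 0.99), a heat shock protein, Irag1 (0.91 and 0.92), a substrate of the cGMP-dependent kinase in smooth muscle, and Rnf180 (0.90 and 0.88), a ubiquitin ligase. These r values came out of a search over many genes and are a description. Slc39a14 (4.85 to 6.03) and Hspa1l (4.58 to 6.61) were faint. Slc39a14 was not well above background on PPG replicate 3, nor was Hspa1l on control replicate 2 and PPG replicate 3. Irag1 measured 12.20, 11.84 and 12.86 in the controls, 12.50, 11.64 and 12.15 in the CS + LPS group, 11.89, 11.99 and 11.88 with NaHS and 11.62, 11.70 and 11.35 with PPG. Its highest array was control replicate 3 and its lowest PPG replicate 3, as for Myh11. Without CS + LPS replicate 1 the 5 genes kept r values from 0.89 to 0.93.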

How the data were processed

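Total RNA of 12 lungs was hybridised to single-colour Agilent rat arrays. The authors deposited one Feature Extraction 10.7.3.1 file per array, and per the file headers the processed signal is a background-subtracted intensity. The authors' lists of differential genes hold their own comparisons and were not used. The members and gene lists were chosen with earlier results of these data known. Outlier spots were dropped, spots of a probe averaged on the log2 scale, and each array's 75th percentile over probes subtracted. A probe was detected when at least 50% of its spots were well above background on all 3 arrays of a group (21239 of 30367 probes, 69.9%). Probes were named through RefSeq accessions. Differences were fitted with limma 3.58.1 (R 4.3.3) over all 12 arrays, which share 1 estimate of the spread, and the fit was tested on simulated data. The call, taken from the study's methods, was a fold change of 2 and an unadjusted p under 0.05. The precision is limited by 3 arrays per group. Exact permutation of 3 against 3 arrays cannot go below p = 0.1, so such tests were not used. The text names all 10 members, a second probe where its direction differs, called genes and otherwise the 2 most intense of each partner list, and the 5 most alike genes. A gene that this rule names is not reported here. Genes of the cell marker lists were named where called or past the adjusted threshold in a comparison the members turn on, a choice made after their values were seen. Alternatives were other normalizations, detection filters, probe rules and background correction (normexp on median signals with an offset of 50), the methods' t-test, slide and replicate blocks, single slides and each array left out.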

Additional observations from a re-analysis of the deposited data

How the results depend on the processing

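None of the alternatives gave a called member in the opposite direction. In CS + LPS against control the count of called members was 1 with slide as a block (Myh11), where 4824 probes were called against 974 in the main fit. In PPG against control it was 2 with quantile normalization, and 0 with normexp background correction, 0 with slide as a block and 0 on slide 1 only. Over all probes these fits called 1007, 385, 662 and 663 in that order, against 930 in the main fit. The median of the members was 0.44 with NaHS and 0.16 with PPG against CS + LPS with slide as a block, where control replicate 3 alone carries the link between slides. Leaving out each array in turn gave 0 to 1 called members in NaHS against control (1 without control replicate 1, CS + LPS replicate 2 or NaHS replicate 2) and 0 to 2 in PPG against control (0 without control replicate 3 or PPG replicate 3, 2 without PPG replicate 1). Over all probes the NaHS fits named here called 973, 555 and 526 in that order, against 568 in the main fit. The PPG fits called 662, 817 and 1012, against 930. Without control replicate 2, where 1599 probes were called, the 1 called gene in PPG against control was Myh11 in place of Lmod1. The cause was not tested. Replicate numbers did not pair the samples: deviations of same-numbered arrays correlated from -0.31 to 0.14, and the replicate block left the count of called members at 1 in PPG against control and at 0 in the other 4 comparisons. Single-slide fits cannot compare the CS + LPS group with the treated groups. Scaling to the 75th percentile over spots was chosen after seeing the data and changed no count. Chrm2 was not well above background on 5 of 12 arrays, which limits its precision.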
